A study of Mus musculus with 6 samples.

Results

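The thioredoxin system was examined in CT26 cells, a colon carcinoma line of BALB/c mice, after knockdown of Sep15, the 15 kDa selenoprotein now named Selenof. Its members are 10 genes: the thioredoxin reductases Txnrd1, Txnrd2 and Txnrd3, the thioredoxins Txn1 and Txn2, the thioredoxin inhibitor Txnip, the thioredoxin-like Txnl1, and the glutaredoxins Glrx, Glrx2 and Glrx3. They were chosen by gene name, as every probe set that the array annotation assigns to one of these genes. That gave 33 probe sets out of 45037 tested, of which 29 carry 1 gene symbol and 4 carry Glrx3 together with Gm12669. The control group was 3 samples of cells transfected with the empty pU6-m3 vector. The shSep15 group was 3 samples transfected with pU6-m3 holding a hairpin against a stretch of 19 nucleotides of the Sep15 cDNA. The labels name no other treatment, and with a single hairpin the loss of Sep15 and other effects of that construct cannot be told apart. Each sample was read on 1 Affymetrix Mouse430_2 array, and the values are log2 RMA values (background corrected, normalized between arrays and summarised per probe set by the authors).

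Thioredoxins are small proteins with a reactive pair of cysteines that reduce disulfides in other proteins, among them peroxiredoxins, methionine sulfoxide reductases and ribonucleotide reductase. Thioredoxin reductases, which are selenoproteins in mammals, recharge them with electrons from NADPH, in the cytosol through Txnrd1 and Txn1 and in mitochondria through Txnrd2 and Txn2. Glutaredoxins do related work with electrons from glutathione. Txnip binds reduced thioredoxin and blocks it, and its gene is known to be induced by glucose. The Sep15 protein itself has a thioredoxin-like fold and resides in the endoplasmic reticulum. Txnrd1 is widely studied in tumour cells, where it is often abundant.

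The targeted gene was read first, as a check of the labels. Its brighter probe set read 12.41, 12.44 and 12.35 on the control arrays and 9.34, 9.59 and 9.50 on the shSep15 arrays, which leaves 13.2% of the control signal. Its other probe set, at 4.71 and 4.70, lay under the background level of 6.02, set at the 95th percentile of 80 probe sets that read olfactory or vomeronasal receptor genes. Of 8 epithelial markers, 4 had control means above the background level, and Cdh1, Krt19, Vil1 and Cdx2 did not, so several defining markers of its tissue were not read above background. Of these 8, Krt20 fell by 2.13 (limma adjusted p = 2.45e-05). Krt18 fell from 6.65 to 4.48, under the background level (limma adjusted p = 9.66e-06). Epcam and Krt8, also with control means above that level, differed by only −0.045 and −0.003 (limma adjusted p = 0.891 and 0.99). All 4 mesenchymal markers were above it, of which Vim, Cdh2 and Col1a1 rose by 0.23, 0.50 and 1.32 and Col3a1 fell by 2.27. The summed epithelial markers ranged from 9.54 to 9.79 on control and 8.78 to 9.08 on shSep15 arrays. The mesenchymal sums ranged from 13.81 to 13.85 and 13.97 to 14.06, without overlap in either list. Sums were taken on the linear scale, so the brightest genes weigh most. On the control arrays these were Krt20 (mean 8.28) and, among the mesenchymal markers, Vim (13.43). The part of these shifts in the results on the thioredoxin system was not tested. Above background were also 1 of 4 leukocyte markers (Cd3e, at 6.26) and 1 of 4 endothelial markers (Kdr, at 6.24). The summed leukocyte markers ranged from 7.36 to 7.56 on control and 7.38 to 7.60 on shSep15 arrays, and the endothelial ones from 7.43 to 7.44 and 7.37 to 7.51, so the groups overlapped for both. Of their 8 genes 1 was called, Itgam (−0.37, limma adjusted p = 0.0204), which lay under the background level in both groups. RNA came from whole samples, so a change in every cell and a change in the share of some cells cannot be told apart.

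The system did not move as a block. Taking the brightest probe set of each gene, cytosolic Txn1 was higher in shSep15 cells, mitochondrial Txn2 and the inhibitor Txnip were lower, and the other 7 genes did not pass the test (limma, Benjamini-Hochberg adjusted p under 0.05 over all probe sets). That is 3 of 10 members called, 1 higher and 2 lower, against 25.0% of all 18193 genes, 12.2% higher and 12.8% lower. All 10 members had means above the background level, and among the 10876 genes that did, 39.1% were called. In this fit the members' share was thus not above that of other expressed genes. Their median log2 difference was −0.11, against 0.01 over all genes, and their median absolute difference was 0.23, against 0.27 over genes above background. The groups did not overlap in 6 of the 10 members, 2 higher and 4 lower, and in 38.1% of all genes. Over the 29 single-symbol probe sets, 8 were called, 3 higher and 5 lower, against 19.4% of all probe sets (9.71% higher and 9.66% lower). The groups of 17 of the 29 did not overlap, against 31.7% of all probe sets, and these 17 include several probe sets of the same gene. Of the 29, 26 lay above background, as did 47.5% of all probe sets. The shares without overlap among genes or probe sets above background, and the share of such probe sets called, were not computed. These comparisons with all genes and all probe sets thus do not allow for expression level. Without control 3, 4 of the 10 genes passed, 1 higher and 3 lower, the added gene being Txnrd1. Over all 18193 genes that fit called 1883 higher and 2308 lower. Leaving out control 2, shSep15 2 or shSep15 3 left Txn1 as the 1 member called. Over all genes these fits called 1697 to 1881 higher and 1800 to 1888 lower. With dim probe sets left out, 5 members were called, beside 2416 genes higher and 2427 lower. With the mean of the probe sets above background 7 were called, beside 2460 higher and 2544 lower. That alternative was chosen after seeing the data. How the members' share stood to that of other genes thus depended on the fit.

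**Figure D1:**
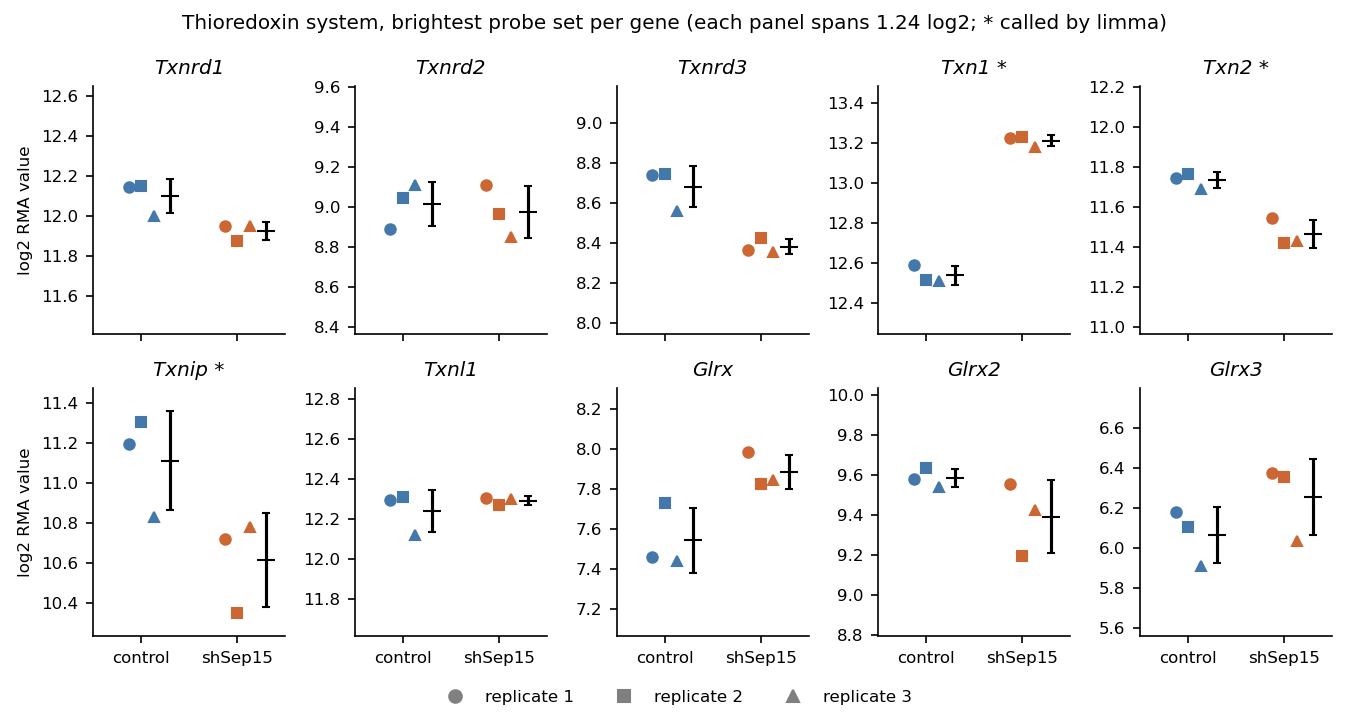
Log2 RMA value of the brightest probe set of each of the 10 genes on the 6 arrays (symbols are replicates, bars are mean ± SD, n = 3), with every panel spanning the same range. Txn1 steps from a mean of 12.54 to 13.21, whereas the groups of Txnrd2 and Txnl1 overlap.

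The 2 thioredoxins went opposite ways. Txn1, the cytosolic and nuclear thioredoxin, read 12.59, 12.52 and 12.51 on the control arrays and 13.23, 13.23 and 13.18 on the shSep15 arrays. Every shSep15 array lay above every control array, with a gap far wider than the spread within either group. The mean rose from 12.54 ± 0.05 to 13.21 ± 0.03 (SD, n = 3), a log2 difference of 0.67 (SE 0.04, limma adjusted p = 1.13e-05), or 1.60-fold. By p-value Txn1 stood in place 173 of 18193 genes, but its size was middling, in place 960 of the 2220 genes called higher. The dimmer Txn1 probe set read 7.33, 7.74 and 7.67 against 7.88, 8.28 and 8.09, again without overlap, and was higher by 0.50 (SE 0.15, limma adjusted p = 0.0483). Its call was lost without any 1 of 5 of the 6 arrays (limma adjusted p up to 0.169), whereas that of the brighter probe set held without each array in turn.

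Txn2, the mitochondrial thioredoxin, read 11.75, 11.77 and 11.69 on the control arrays and 11.55, 11.42 and 11.43 on the shSep15 arrays. No arrays of the groups overlapped, but the step was small. The mean went from 11.73 ± 0.04 to 11.47 ± 0.07 (SD, n = 3), a log2 difference of −0.27 (SE 0.06, limma adjusted p = 0.0134) that left 83.0% of the control signal. Its other 2 probe sets differed by −0.22 (limma adjusted p = 0.0442) and −0.25 (limma adjusted p = 0.0540). All 3 thus gave nearly the same size and 2 passed. Of these, the dimmer kept its call in 1 of 6 fits that each left out 1 array (limma adjusted p up to 0.1517). The call of the brightest was lost without control 2 or without shSep15 2 or 3 (limma adjusted p from 0.0504 to 0.0617), with differences between −0.25 and −0.31 over all left-out arrays. It was also lost without the intensity trend of the variance (limma adjusted p = 0.0544). Txn2 stood in place 2265 of the 2323 genes called lower when these were ordered by size.

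Txnip encodes an alpha-arrestin that binds and inhibits thioredoxin. Its brightest probe set read 11.19, 11.31 and 10.83 on the control arrays and 10.72, 10.35 and 10.78 on the shSep15 arrays. The lowest control array, control 3, lay only just above the highest shSep15 array. The mean was 11.11 ± 0.25 in control and 10.62 ± 0.23 in shSep15 cells (SD, n = 3), a log2 difference of −0.49 (SE 0.15, limma adjusted p = 0.0428) that left 71.0% of the control signal. The other probe set read 11.12, 11.09 and 10.82 against 10.60, 10.54 and 10.75, a difference of −0.38 (SE 0.10, limma adjusted p = 0.0253). Both probe sets thus fell, with p-values near the threshold. The call of the other probe set held in 2 of 6 fits that each left out 1 array (limma adjusted p up to 0.1055). Leaving out any array but control 3 ended the call of the brightest (limma adjusted p from 0.0594 to 0.162), and without control 3 the difference was −0.63 (limma adjusted p = 0.0149). That call also ended without the intensity trend (limma adjusted p = 0.0685) and when arrays were shifted to the same median (limma adjusted p = 0.0525).

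The upstream sequences of Txn1, Txn2 and Txnip are shown because these are the 3 members that were called, 1 of them in the opposite direction to the others. Each is the 250 bases before the transcription start in RefSeq (GRCm38.p6), 5′ to 3′ on the gene's strand. Capitals mark matches, on either strand, to 5 motifs: the GC box GGGCGG, the CCAAT box CCAAT, the E-box CACGTG, the antioxidant response element core TGACNNNGC, and a paired element written as CACGAG, any 5 bases and CACGAG. That last form is the carbohydrate response element known from Txnip promoters, so finding it there was the basis of the search and not a result.
Txn1, chr4:57956412-57956661, minus strand: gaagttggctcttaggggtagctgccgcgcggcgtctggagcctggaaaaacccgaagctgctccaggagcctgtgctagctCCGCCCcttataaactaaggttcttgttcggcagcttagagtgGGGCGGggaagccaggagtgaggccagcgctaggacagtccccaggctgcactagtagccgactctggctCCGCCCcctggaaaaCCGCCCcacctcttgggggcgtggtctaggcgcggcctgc
Txn2, chr15:77928995-77929244, minus strand: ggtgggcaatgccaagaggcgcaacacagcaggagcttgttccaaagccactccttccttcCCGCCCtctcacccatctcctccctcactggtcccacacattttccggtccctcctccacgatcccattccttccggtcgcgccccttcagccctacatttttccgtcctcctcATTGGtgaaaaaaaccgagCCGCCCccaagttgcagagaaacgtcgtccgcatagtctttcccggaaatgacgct
Txnip, chr3:96557707-96557956, plus strand: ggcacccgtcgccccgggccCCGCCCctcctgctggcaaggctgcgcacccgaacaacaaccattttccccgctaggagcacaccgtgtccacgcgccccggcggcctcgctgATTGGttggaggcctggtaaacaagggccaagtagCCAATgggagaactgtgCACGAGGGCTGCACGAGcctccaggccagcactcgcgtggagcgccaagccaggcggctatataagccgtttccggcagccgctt
The window of Txn1 holds 4 GC boxes, starting 168, 125, 55 and 40 bases before the start, and no CCAAT box. That of Txn2 holds 2 GC boxes and 1 CCAAT box. That of Txnip holds 1 GC box, 2 CCAAT boxes and the paired element, which starts 85 bases before the start. A GC box was found in 32.7% of the 32851 windows of the table and a CCAAT box in 33.8%, so single matches of these are common. The paired element was found in 1 window, that of Txnip, while the E-box (6.02% of windows) and the antioxidant core (10.2%) were found in none of the 3 shown. Of the 15 windows of the 9 members in the table, the antioxidant core was found in 1, a Txnrd1 window, 92 bases before its transcription start. Txnrd1 has other windows in the table, without that core. These matches describe the letters and say nothing of which factors bound there in CT26 cells.

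The 3 reductases, which pass electrons from NADPH to thioredoxin, gave no call on any of their 10 probe sets. Txnrd1, the cytosolic reductase and a selenoprotein, read 12.15, 12.15 and 12.00 on the control arrays and 11.95, 11.87 and 11.95 on the shSep15 arrays on its brightest probe set. The shSep15 arrays were all below the control arrays, though by only a small margin under control 3. The log2 difference was −0.17 (95% interval −0.31 to −0.04, limma adjusted p = 0.0802), or 88.7% of the control signal. It passed under 6 of 14 alternatives. Among them were the fit without control 3 (−0.22, limma adjusted p = 0.0281) and the mean of its 3 probe sets (−0.34, limma adjusted p = 0.0300). The lowest value came when the arrays were quantile normalized again (−0.20, limma adjusted p = 0.017). The second probe set was lower by more, from a mean of 9.45 to 8.86 (−0.60, 95% interval −1.04 to −0.15, limma adjusted p = 0.0662), with shSep15 2 at 8.39 and the other shSep15 arrays at 9.14 and 9.04. Without shSep15 2 this difference was −0.36. On the third the difference was −0.26 (limma adjusted p = 0.197). On all 3 the groups were apart in the same direction, and none of the 3 passed.

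Txnrd2, the mitochondrial reductase, read 8.89, 9.05 and 9.11 on the control arrays and 9.11, 8.96 and 8.85 on the shSep15 arrays, so the groups overlapped fully. The log2 difference was −0.04 (95% interval −0.30 to 0.21, limma adjusted p = 0.860). Its 3 dimmer probe sets differed by 0.05, 0.06 and 0.17, none past the threshold. The mitochondrial pair thus comprised a called fall of Txn2 and an interval for Txnrd2 that spans 0, and whether the 2 changes differ was not tested. Txnrd3, which carries a glutaredoxin domain beside its reductase part and is best known from testis, read 8.74, 8.75 and 8.56 against 8.37, 8.43 and 8.36. Its groups did not overlap. The log2 difference was −0.30 (95% interval −0.54 to −0.06, limma adjusted p = 0.0823), and the other 2 probe sets gave −0.26 and −0.42 (limma adjusted p = 0.243 and 0.103). With the mean of its 3 probe sets the same gene passed at −0.33 (limma adjusted p = 0.0481). Of the 10 reductase probe sets 7 had lower values in shSep15 cells, those of Txnrd1 and Txnrd3 and the brightest of Txnrd2.

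**Figure D2:**
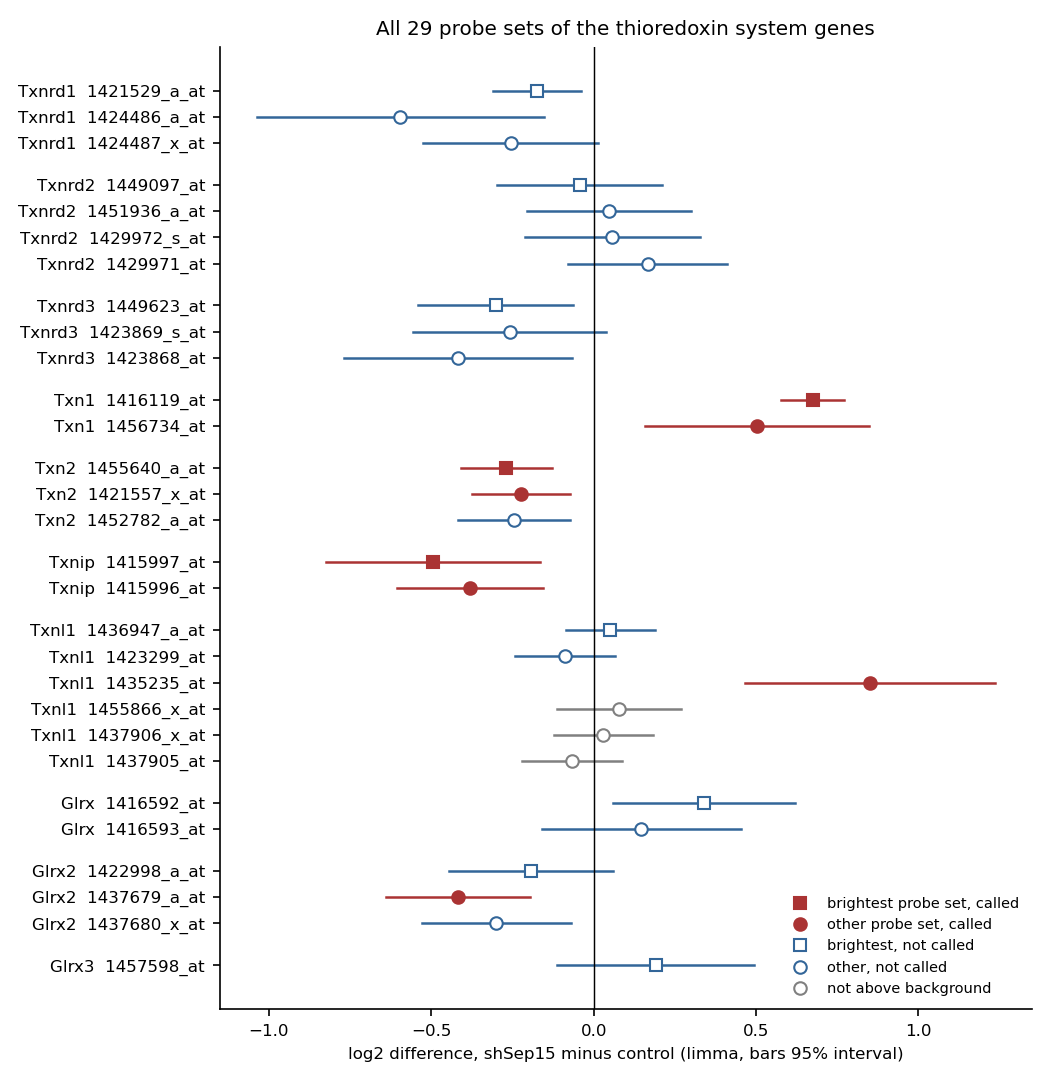
Log2 difference of shSep15 minus control with its 95% interval (limma) for the 29 single-symbol probe sets, grouped by gene. Filled symbols passed an adjusted p of 0.05, squares are the brightest probe set of a gene, and grey symbols lie under the background level. All 10 reductase probe sets are open, and the filled Txnl1 symbol at 0.85 stands apart from the other probe sets of its gene.

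The glutaredoxins, which reduce protein disulfides and mixed disulfides with glutathione, gave 1 called probe set out of 6. Glrx, the cytosolic glutaredoxin, read 7.46, 7.73 and 7.44 on the control arrays and 7.99, 7.82 and 7.85 on the shSep15 arrays. Its groups were apart by a narrow gap, with control 2 close to shSep15 2. The log2 difference was 0.34 (95% interval 0.06 to 0.62, limma adjusted p = 0.0976), and 0.15 on its other probe set (limma adjusted p = 0.556), where it was 0.02 without control 3. Glrx2, a glutaredoxin of mitochondria and nucleus that binds an iron-sulfur cluster, read 9.58, 9.63 and 9.54 against 9.56, 9.19 and 9.43 on its brightest probe set. Here shSep15 1 fell among the control arrays, and the difference of −0.19 did not pass (95% interval −0.45 to 0.06, limma adjusted p = 0.311). Without shSep15 2 it was −0.09. A second Glrx2 probe set of nearly the same brightness read 9.48, 9.65 and 9.65 against 9.25, 9.16 and 9.11, without overlap, and was called lower (−0.42, SE 0.10, limma adjusted p = 0.0149). The third differed by −0.30 (limma adjusted p = 0.0744), and the mean of all 3 passed (−0.30, limma adjusted p = 0.0202). The call of the second probe set held without 3 of the 6 arrays and ended without the other 3 (limma adjusted p up to 0.0651).

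Glrx3, a cytosolic glutaredoxin of iron handling, had 1 single-symbol probe set, close to the background level, at 6.18, 6.11 and 5.91 against 6.37, 6.36 and 6.04. The groups overlapped and the difference was 0.19 (95% interval −0.11 to 0.49, limma adjusted p = 0.419), or 0.11 without control 3 and 0.30 without shSep15 3. The 4 probe sets annotated to both Glrx3 and Gm12669 cannot be assigned to either. The brightest of them read 10.33 ± 0.12 in control and 10.12 ± 0.07 in shSep15 cells (SD, n = 3), a difference of −0.21 (limma adjusted p = 0.176). The next differed by 0.08 (limma adjusted p = 0.871), with control 3 at 9.32 and the other control arrays at 10.15 and 9.98, and the remaining 2 lay under the background level.

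Txnl1, a cytosolic thioredoxin-like protein found with the proteasome, had probe sets that disagreed. Its brightest probe set read 12.30, 12.31 and 12.12 on the control arrays and 12.30, 12.27 and 12.30 on the shSep15 arrays. The groups overlapped, with a difference of 0.05 (95% interval −0.09 to 0.19, limma adjusted p = 0.664). The next gave −0.09 (95% interval −0.24 to 0.07, limma adjusted p = 0.463). By contrast, a dimmer probe set, the third brightest, read 8.10, 8.10 and 7.76 against 8.96, 8.48 and 9.06. All its shSep15 arrays lay above all control arrays, shSep15 2 least so, and it was called higher (0.85, SE 0.17, limma adjusted p = 0.00670), a call that held without each array in turn. The other 3 Txnl1 probe sets lay under the background level, between 3.78 and 4.35, and gave no reading.

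Probe sets of the same gene were then compared within each array, by subtracting the brightest from each dimmer one above background. For the third brightest Txnl1 probe set against the brightest this log2 ratio was −4.25 ± 0.09 in control and −3.45 ± 0.29 in shSep15 cells (SD, n = 3). It shifted by 0.80 without overlap, at the smallest p that 3 against 3 arrays can give (two-sided exact permutation p = 0.100). Of 16 such ratios over 9 genes, 3 did not overlap between the groups, both those of Txnl1 and 1 of Txnrd1 (a shift of −0.42, exact permutation p = 0.100). Over all genes 35.4% of 8023 such ratios did not overlap, so the members' probe sets parted no more often than those of other genes. No adjustment over the 16 could bring any of them past 0.05. The annotation does not say which stretch of the transcript each probe set reads, and which transcripts the called Txnl1 probe set detects was not tested.

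**Figure D3:**
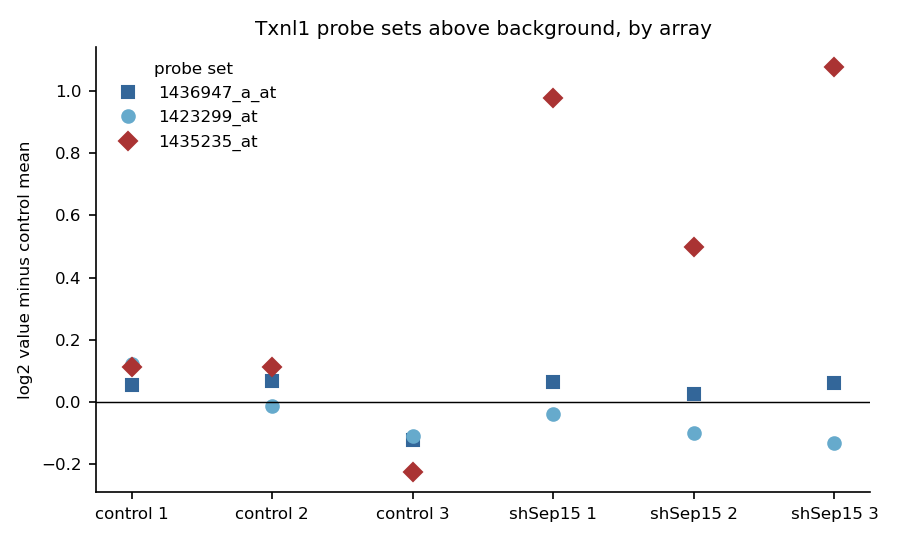
Log2 values of the 3 Txnl1 probe sets above background on each array, minus the mean of the control arrays. The 2 bright probe sets stay near 0 on all 6 arrays, while the third is raised on each shSep15 array, by the least on shSep15 2.

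Some of the spread among the members was shared by an array. Control 3 was the lowest control array in 20 of the 26 single-symbol member probe sets above background, control 1 in 5 and control 2 in 1. These 26 read only 10 genes, most of them by several probe sets, so they are not independent readings. Over all probe sets above background control 3 was the lowest in 49.3%. Among the shSep15 arrays, shSep15 2 and shSep15 3 were each the lowest in 11 of the 26, and over all probe sets above background in 44.4% and 29.4%. On the brightest probe sets of Txnip, Txnrd1 and Txnrd3 control 3 was the lowest control array and so the nearest to the lower shSep15 values. On that of Txnrd2, and on the called Glrx2 probe set, it was the highest.

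Partners and clients of the system were followed in lists of related genes. Among the enzymes that thioredoxins and related oxidoreductases keep reduced, 5 of 10 measured were called higher and 0 lower, with a median log2 difference of 0.20, where all genes had 0.01. Over all genes 12.2% were called higher and 12.8% lower, and 39.1% of genes above background were called in either direction. Prdx4, the peroxiredoxin of the endoplasmic reticulum, rose by 0.95 (SE 0.12, limma adjusted p = 0.000433), with 2 of its 3 probe sets above background called. The ribonucleotide reductase subunits Rrm2 and Rrm1, which make deoxynucleotides for DNA synthesis, rose by 0.88 and 0.81 (limma adjusted p = 0.000401 and 7.28e-05), with all probe sets above background called. The other 2 of the 5, named after their values were seen, were the methionine sulfoxide reductase Msrb1, itself a selenoprotein (0.72), and the peroxiredoxin Prdx2 (0.21). The call of Prdx2 ended without any 1 array (limma adjusted p up to 0.175) and under 5 of 8 other alternatives, among them the mean of its probe sets, and its difference was as small as 0.0335 (limma adjusted p up to 0.850). The mitochondrial peroxiredoxin Prdx3 differed by 0.18 (limma adjusted p = 0.129) and the p53-inducible subunit Rrm2b by −0.10 (limma adjusted p = 0.579), both also named after their values were seen. Msra, a methionine sulfoxide reductase, read lower on every shSep15 array than on any control array without passing (−0.39, limma adjusted p = 0.0897).

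Among other proteins with a thioredoxin fold, 4 of 20 measured were higher and 1 lower, with a median of 0.08. That is the same share called as the 25.0% over all genes, and is under the 39.1% of genes above background. Of the 20, 16 had control means above background. Txndc12, an oxidoreductase of the endoplasmic reticulum, rose by 0.65 (SE 0.08, limma adjusted p = 0.000547). Tmx4, a membrane-bound relative, was higher by 0.59 (limma adjusted p = 0.00542) on its brightest probe set, the only 1 of 3 above background that was called, and by 0.16 on the mean of its probe sets. Txndc16 was lower (−0.59, limma adjusted p = 0.0263), a call that held without control 3 but ended without any other single array (up to 0.104). The other 2 called higher, named after their values were seen, were Tmx2 (0.36), called on 1 of its 2 probe sets, whose call ended without shSep15 2 (limma adjusted p = 0.0612), and the mitochondrial glutaredoxin Glrx5 (0.30), which serves iron-sulfur cluster assembly. Of Glrx, Glrx2, Glrx3 and Glrx5, Glrx5 was the 1 whose brightest probe set was called.

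Of the other alpha-arrestins and the glucose-sensing factors that act on Txnip, 4 of 8 lay near background in both groups. Arrdc3, an alpha-arrestin of the Txnip family, rose from 7.24 to 8.63 (log2 difference 1.39, SE 0.28, limma adjusted p = 0.00683), the opposite direction to Txnip. Mlx, the partner of the glucose-responsive factors Mlxip and Mlxipl, was lower (−0.35, limma adjusted p = 0.0463), a call lost without any 1 array (up to 0.148) and shown by 1 of its 2 probe sets above background. Mlxip differed by −0.11 (limma adjusted p = 0.634), and Mlxipl was near background. The median of the 8 was 0.10, and their 1 higher and 1 lower call stand beside 12.2% and 12.8% of all genes.

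The genes that supply glutathione to glutaredoxins split evenly, with 2 of 6 measured higher, 2 lower and a median of −0.02. Over all genes 12.2% were higher and 12.8% lower. All 6 had control means above background, and 39.1% of genes above background were called in either direction. Gclm, the modifier subunit of the rate-limiting ligase, rose by 1.75 and Pgd, which makes NADPH, by 1.14 (limma adjusted p = 4.09e-06 and 9.54e-06). Slc7a11, the cystine importer, fell from 6.79 to 5.97, just under the background level (−0.83, limma adjusted p = 0.0126), and the call ended without control 2 or shSep15 2 (up to 0.0610). Gss, glutathione synthetase, named after its value was seen, fell by 0.66, with 1 of its 2 probe sets above background called. Glutathione reductase Gsr, the counterpart of the thioredoxin reductases on the glutathione side, differed by 0.28 (limma adjusted p = 0.0973).

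In the last list, the NRF2 pathway and proteins bound by thioredoxin, 2 of 8 measured were higher and 1 lower, with a median of −0.14, a share called close to the 39.1% of genes above background. Hmox1, the haem oxygenase induced by NRF2, fell by 1.14 (limma adjusted p = 0.000112). Apex1, a DNA repair enzyme that thioredoxin reduces in the nucleus, rose by 0.74 (limma adjusted p = 0.000750) on all 3 of its probe sets above background. Keap1, the inhibitor of NRF2, was higher by 0.42 (limma adjusted p = 0.0181) on 1 of 2 probe sets, and the call ended without control 2, control 3 or shSep15 2 (up to 0.0750). Nfe2l2, which encodes NRF2, differed by −0.17 (limma adjusted p = 0.109), Srxn1 by 0.16 (limma adjusted p = 0.294), and Nqo1 was near background in both groups.

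Txn1 and Txnip lie on chromosomes where most called genes were higher. Txn1 is on chromosome 4, where 222 of 669 other genes above background were called higher and 55 lower, with a median log2 difference of 0.16. Of its 20 nearest genes above background, 10 on either side, 10 were higher and 2 lower, with a median of 0.35, against 0.67 for Txn1. Txnip is on chromosome 3, where 230 of 538 were higher and 64 lower (median 0.26). Of its 20 neighbours 10 were higher and 0 lower, with a median of 0.42, so Txnip, at −0.49, went against its surroundings. Txn2, on chromosome 15, was lower among neighbours with a median of 0.11, 5 higher and 2 lower. Txnl1 lies on a chromosome where 15 of 259 were called higher and 120 lower (median −0.30), while its own 20 neighbours had a median of −0.02. The chromosome medians of the remaining members were between −0.07 and 0.07. Of the neighbours of Txnrd3, which itself differed by −0.30, 0 were higher and 7 lower (median −0.13), and of those of Txnrd2 8 were higher and 3 lower (median 0.15). The neighbour medians of Txnrd1, Glrx, Glrx2 and Glrx3 were between −0.06 and 0.04. The part of these surroundings in the members' values was not tested.

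**Figure D4:**
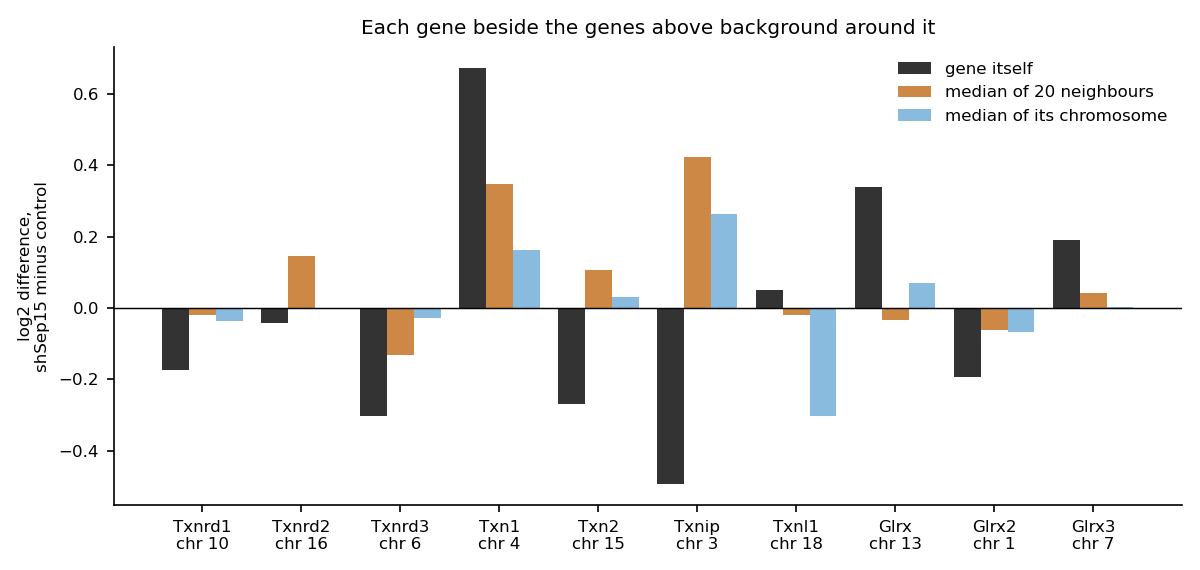
Log2 difference of each of the 10 genes (dark bars), the median of the 20 nearest genes above background (orange) and the median of all other genes above background on its chromosome (blue). Txn1 points the same way as its neighbours and chromosome, and Txnip the opposite way.

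The genes whose values ran most like those of Txn1 and Txnip were sought among 10875 others above background. Likeness was the root mean square difference over the 6 arrays after each gene was centred on its control mean. Nearest to Txn1 were Uqcrh, a subunit of respiratory complex III (0.02 log2), the nucleosome-binding protein Hmgn1 (0.02) and the calponin Cnn3 (0.03), with log2 differences of 0.70, 0.70 and 0.68. Nearest to Txnip were the autophagy protein Map1lc3a (0.04), the ion channel Pacc1 (0.07) and Asb3 (0.07). The differences of Map1lc3a and Pacc1, −0.50 and −0.48, did not pass (limma adjusted p = 0.0617 and 0.0696), and that of Asb3 did (−0.56, limma adjusted p = 0.0200).

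**Figure D5:**
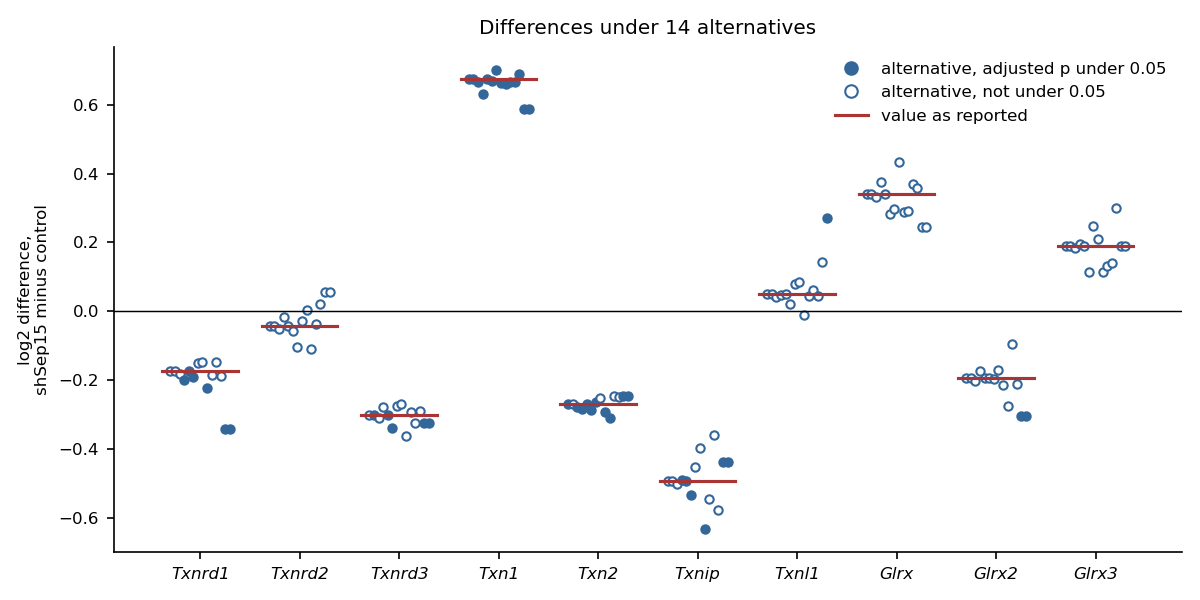
Log2 difference of each of the 10 genes under 14 other ways of treating the same values (circles, filled where the adjusted p was under 0.05) and as reported (red line). The circles of Txn1 are filled in all 14, those of Txn2 in 10, those of Txnip and Txnrd1 in 6 each and those of Txnrd3 in 5.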

How the data were processed

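Per the labels' protocols, TRIzol RNA of 6 CT26 samples was biotin-labelled and hybridised to 1 Mouse430_2 array each. The deposited log2 values, 1 per probe set and array, come from RMA as the authors ran it, according to the submitters' processing notes. Its version is not given in the sources used here. Normalization between arrays hides changes of total RNA, RMA compresses differences of dim probe sets, and the number of arrays limits precision. Nothing states that the samples of a group were separate cultures, so p-values measure the spread between these samples.

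After 64 array controls were set aside, 45037 probe sets were fitted with limma 3.58.1 in R 4.3.3 (lmFit, eBayes with intensity trend, group as the only term), a two-sided test with Benjamini-Hochberg adjustment over all of them at a threshold of 0.05. The fit was tested on simulated data. Symbols were updated through the RefSeq table of GRCm38.p6, which held 34741 of 34945 single-symbol probe sets. The brightest single-symbol probe set stands for a gene. A gene near background had both group means under the background level. Named genes were the 10 members, Selenof, up to 3 called members of each list with the greatest absolute differences, and the 3 genes most like the members with the greatest rise and fall. All other list genes and markers in the text were named after their values were seen. Members, lists and rules were chosen with earlier results of these data known. Alternatives were a replicate block, no trend, other scalings, a filter on dim probe sets, array weights, means of probe sets and leaving out each array. Deviations from the group means correlated at 0.40, −0.20 and −0.06 between same-numbered arrays. Deviations from a mean of 3 arrays are tied to each other, so these values cannot decide whether the numbers pair the samples. Promoter windows came from RefSeq for 9 of the 10 members.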

Additional observations from a re-analysis of the deposited data

How the results depend on the processing

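Of 140 differences of the 10 members under 14 alternatives, 109 kept their direction and their side of the threshold, 14 came to pass it, 12 ceased to and 5 changed sign, all 5 of members near 0 that were not called. Txnrd2 (−0.04) became 0.0574 with the mean of its probe sets, all or above background, and ranged from −0.11 to 0.0202 over the left-out arrays. Txnl1 (0.05) ranged from −0.0105 to 0.0840 over these. Txn1 passed in all 14 alternatives, with differences of 0.59 to 0.70.

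The members called higher were 1 as reported and 2 with the mean of the probe sets above background, an alternative chosen after seeing the data, where Txnl1 was added. The members called lower were 2 as reported. They were 1 with the replicate block, 1 without the intensity trend and 1 with arrays shifted to the same median. They were 3 when quantile normalized again, 4 without dim probe sets and 4 with array weights. With the mean of all probe sets they were 5, with the mean of those above background 5, and over the left-out arrays 0 to 3. Over all genes 2220 were called higher and 2323 lower as reported. These counts were 2411 and 2441 when quantile normalized again, 2416 and 2427 without dim probe sets, and 2354 and 2588 with array weights. They were 2279 and 2358 with the mean of all probe sets, and 2460 and 2544 with the mean of those above background. No alternative moved these counts by over 1.5 times.

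In the lists, the thioredoxin-fed enzymes called lower went from 0 to 1 with either mean of probe sets. The other thioredoxin-fold proteins called lower, 1 as reported, were 2 without the trend, 2 with arrays shifted, 2 when quantile normalized again, 3 without dim probe sets, 3 with array weights and 3 with either mean, and 0 to 1 over the left-out arrays. The alpha-arrestin list called lower went from 1 to 0 with the replicate block, with arrays shifted and with the mean of all probe sets, and was 0 to 1 over the left-out arrays. The glutathione list called lower ranged from 1 to 2 over these. The NRF2 list called higher ranged from 1 to 2 over these, and called lower from 1 to 2, reaching 2 with the mean of all probe sets and 4 with the mean of those above background. The causes were not tested. Leaving out dim probe sets changed both the number of tests and the fit of the variances, and these were not told apart. The replicate block ended the call of Txnip (limma adjusted p = 0.0516) and no other member's.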
